A study of Mus musculus with 6 samples.

Results

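The Iroquois genes Irx1, Irx2, Irx3 and Irx5 were described in mouse embryos, in the tissue of the node and primitive streak. They were taken by gene symbol from the annotation of the array, which holds 1 probe set for each, so 4 of 18193 genes measured and 4 of 45037 probe sets. The genes were chosen by their log2 signals in the null pools, against those in the wild-type pools, with that difference already known, so their values in this contrast are given as a description, with no test. RNA came from Wnt3a null embryos (3 pools) and from Wnt3a wild-type embryos (3 pools), both on a mixed C57BL/6 and 129/Sv background, between embryonic days 7.75 and 8, with 0 to 2 somites. Each pool joined amplified RNA of 3 embryos of 1 genotype and stage and was hybridised to 1 Affymetrix mouse whole-genome array, which measures each gene by short probes grouped in probe sets. Wnt3a is a secreted Wnt ligand; the labels name neither the altered part of the gene nor a promoter or Cre line. The design text states that the region was taken where Wnt3a is made, before the mutants look abnormal, to look for genes downstream of it.

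Iroquois genes encode homeodomain transcription factors of the TALE class and are named after their Drosophila relatives. In mammals they lie in 2 clusters of 3 genes, with Irx1, Irx2 and Irx4 in one and Irx3, Irx5 and Irx6 in the other. They are known for patterning the neural plate and neural tube, where Irx3 helps to set the borders between progenitor domains, and for roles in the heart, where Irx4 marks the ventricle and Irx3 and Irx5 act in the conduction system.

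The arrays had median signals of 73.6 to 86.1 on the deposited linear scale. Wild-type pool 1 stood apart by a signal of 4.31 for the Y-linked gene Eif2s3y, against 1053 to 1788 on the other 5 arrays. Gapdh probes at the 3' end over those at the 5' end, a ratio that is higher where RNA is less intact, gave 2.09 to 2.39 in the null pools, against 2.51 to 3.00 in the wild-type pools. The same ratio for Actb overlapped, at 2.38 to 3.83 in the null and 2.68 to 3.69 in the wild-type pools, and the part of either ratio in the results was not tested. Wnt3a itself had signals of 961, 761 and 1009 in the null pools, against 864, 1058 and 996 in the wild-type pools. Its groups overlapped, and because a mutated gene may still be transcribed, these values are no check of the genotype. The defining genes of the dissected region were measured in both genotypes, with differing values. Of 10 genes of the streak and posterior progenitors 9 were lower in value in the null pools, with a median log2 difference of -0.60. Of 7 node and notochord genes 5 were lower, with a median of -0.46. That node median turned on single arrays, from -1.19 without wild-type pool 2 to 0.33 without null pool 2. The streak list holds Nkx1-2, a gene of the posterior growth zone. It had 14482 ± 2713 in the null and 16781 ± 1573 in the wild-type pools (SD, n = 3 each). The node and floor plate gene Foxa2, 1 of the 2 higher node genes, had 462 ± 122 and 364 ± 54.7. Nodal, 1 of the 5 lower ones, had 216 ± 70.0 and 479 ± 233, without overlap.

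Irx3 had signals of 2084, 2165 and 2046 in the null pools, against 789, 993 and 601 in the wild-type pools. All null pools lay above all wild-type pools, and the lowest null value was 2.06 times the highest wild-type value. The means were 2098 ± 60.9 in the null and 794 ± 196 in the wild-type pools (SD, n = 3 each). On the log2 scale the difference, null minus wild type, was 1.43 with a standard error of 0.25, a 2.70-fold higher signal. Within replicate numbers 1, 2 and 3 the differences were 1.40, 1.12 and 1.77. The null pools were close to each other: the highest was 1.06 times the lowest, and in the wild-type pools 1.65 times.

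Irx5, the neighbour of Irx3 in the same cluster, had signals of 816, 724 and 714 in the null pools, against 321, 413 and 119 in the wild-type pools. The groups were again apart, with the lowest null pool at 1.73 times the highest wild-type pool. The means were 752 ± 56.4 in the null and 284 ± 151 in the wild-type pools (SD, n = 3 each), a log2 difference of 1.58 with a standard error of 0.50, or 2.99-fold. Its size rested in part on wild-type pool 3, the lowest of all 6 arrays: the differences within replicate numbers 1, 2 and 3 were 1.35, 0.81 and 2.59, and without that pool the log2 difference was 1.04. The wild-type pools spread over 3.48-fold, and the null pools over 1.14-fold.

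**Figure D1:**
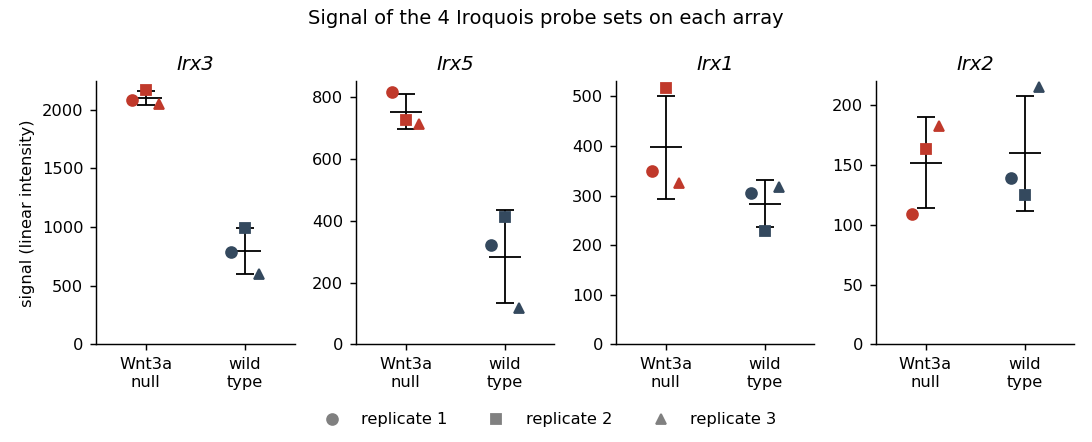
Signal on a linear scale (vertical axis) of the probe sets of Irx3, Irx5, Irx1 and Irx2 on each array, in Wnt3a null pools (left in each panel) and wild-type pools (right). Symbols mark the replicate numbers, and the long horizontal line with its bars is the mean ± SD of 3 pools. For Irx3 and Irx5 the null pools lie well above the wild-type pools, for Irx1 just above, and for Irx2 the groups overlap.

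The Irx1 groups did not overlap either, but by a narrow margin. Signals were 350.3, 517 and 326 in the null pools, against 306, 229 and 317 in the wild-type pools, so the lowest null pool was 1.03 times the highest wild-type pool. The means were 398 ± 104 in the null and 284 ± 48.1 in the wild-type pools (SD, n = 3 each). The log2 difference was 0.47 with a standard error of 0.28, or 1.38-fold. Null pool 2 and wild-type pool 2 made most of it: within replicate number 2 the difference was 1.17, and within numbers 1 and 3 it was 0.19 and 0.04. Without null pool 2 the log2 difference was 0.26.

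Irx2, the neighbour of Irx1 in its cluster, had signals of 109, 164 and 183 in the null pools, against 139.7, 125 and 215 in the wild-type pools. The groups overlapped: the lowest signal of the 6 stood in a null pool and the highest in a wild-type pool. The means were 152 ± 38.2 in the null and 160.1 ± 48.2 in the wild-type pools (SD, n = 3 each), and the log2 difference was -0.07 with a standard error of 0.33. The differences within replicate numbers 1, 2 and 3 were -0.35, 0.38 and -0.23. The sign of the mean difference turned without null pool 1, to 0.15, and without wild-type pool 3, to 0.17.

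**Figure D2:**
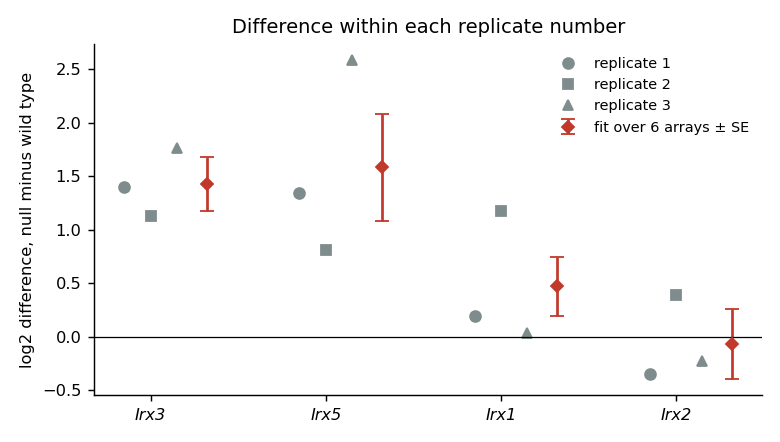
Log2 difference in signal, null minus wild type (vertical axis), within each of the 3 replicate numbers (grey symbols) and as fitted over all 6 arrays (red diamond, bars are the standard error) for each gene. The 3 grey symbols of Irx3 lie between 1.12 and 1.77, those of Irx5 between 0.81 and 2.59, those of Irx1 all above 0, and those of Irx2 on both sides of 0.

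In all, 3 of the 4 genes had null pools above wild-type pools without overlap, as did 5.57% of all 45037 probe sets, and 0 had null pools below them, as did 4.41% of all. The same 3 were higher in null within each replicate number, as were 15% of all probe sets, and 0 were lower in each, as were 13.7%. Since these genes were proposed from this contrast, nothing is read from either count. Among the 22519 probe sets with a mean log2 signal at or above the median, 71 had a log2 difference at least as high as that of Irx3 and 50 one at least as high as that of Irx5. The median log2 difference of all probe sets was 0.01. Without wild-type pool 1, which had the low Eif2s3y signal, the log2 differences were 1.44 for Irx3, 1.76 for Irx5, 0.53 for Irx1 and -0.15 for Irx2.

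Over all 45037 probe sets, limma called 0 higher and 0 lower in the null pools at an adjusted p under 0.05 (0%), with 1280 higher and 993 lower at an unadjusted p under 0.05. That split turned with the scaling, to 1081 higher and 1165 lower with median centring and 1136 higher and 1174 lower with quantile normalization, and without null pool 1, to 1073 higher and 1201 lower. With the replicate number blocked and trend and robust options on, limma called 8 higher and 14 lower, 22 in all or 0.0488%, and the 8 higher ones, 0.0178% of the probe sets, included 1 of the 4, Irx3. Both the gene and this fit were taken up with earlier results of these data known, so nothing is read from that call. In bulk samples such as these, more cells of a type and more RNA per cell cannot be told apart.

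The 4 genes also differed in how much the pools of 1 genotype varied. Among the 500 probe sets nearest to it in mean log2 signal, 3.6% had a smaller SD over the null pools than Irx3, whose SD was 0.04 on the log2 scale against a median of 0.19 for those probe sets. Over the wild-type pools the SD of Irx3 was 0.36, against a median of 0.22, and 82.8% of them had a smaller one. Irx5 showed the same order, with an SD of 0.11 over null pools (14% smaller) and 0.95 over wild-type pools (98.8% smaller). For Irx1 the SD was 0.36 over null and 0.26 over wild-type pools, and for Irx2 0.39 and 0.41.

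In the wild-type pools Irx3 and Irx5 were both highest in pool 2 and lowest in pool 3. In the null pools Irx3 was highest in pool 2 and Irx5 in pool 1. Pearson's r of their log2 signals over the 6 arrays was 0.94, and r of the deviations from the genotype means was 0.95, in which the wild-type pools, with their larger SDs, weigh most. These arrays share pools, amplification and scaling between the 2 probe sets, and the 6 arrays fall into 2 genotypes, so r is a description. Irx1 and Irx2 did not follow within the genotypes. Their r of deviations was -0.43 between Irx3 and Irx1, -0.69 between Irx3 and Irx2 and 0.40 between Irx1 and Irx2. Over the 6 arrays r with Irx3 was 0.56 for Irx1 and -0.29 for Irx2, and r with Irx5 was 0.37 and -0.54.

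The rest of the 2 clusters was measured as well. Irx6, the third gene beside Irx3 and Irx5, had signals of 43.2, 20.8 and 75.3 in the null pools, against 70.0, 14.6 and 22.9 in the wild-type pools, all below the median signals of the arrays. Irx4, the third gene beside Irx1 and Irx2, had 7.83, 43.4 and 18.6 in the null pools, against 3.31, 19.5 and 54.0 in the wild-type pools. At signals this low both groups overlapped, and neither gene was called, with log2 differences of 0.51 for Irx6 and 0.29 for Irx4 (limma, adjusted p = 1.00 for both). Crnde, a gene of a long noncoding RNA between Irx3 and Irx5, is named for its place in the cluster and not by the rule for named genes. Its signals were 106, 57.2 and 135 in the null pools, against 8.28, 3.96 and 53.0 in the wild-type pools. The null pools were all above the wild-type pools, by 57.2 against 53.0 at the closest. Its log2 difference was 2.96 with a standard error of 1.01, and it was not called (limma, adjusted p = 0.957, from 0.306 to 1.00 over the alternatives). With 50 added to each signal before taking logs, the difference was 1.08. In the wild-type pools Crnde was highest in pool 3 and lowest in pool 2, the reverse of Irx3 and Irx5. In the null pools it was also highest in pool 3 and lowest in pool 2, the reverse of Irx3 but not of Irx5.

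The bright genes that flank Irx3, Irx5 and Irx6 had values close to each other in the 2 genotypes. Fto, next to Irx3, had 949 ± 45.9 in the null and 963 ± 115 in the wild-type pools (SD, n = 3 each), a log2 difference of -0.02. Mmp2, a matrix metalloproteinase gene next to Irx6, had 1558 ± 389 and 1603 ± 143, a log2 difference of -0.07, and its second probe set had -0.12. A second and dimmer Fto probe set, with means of 57.3 in the null and 37.4 in the wild-type pools, had 0.69, with overlapping groups. The other neighbours of that cluster were Aktip at -0.06, Lpcat2 at 0.23, Capns2 at 0.87 and Gm36243 at 2.53, of which Lpcat2, Capns2 and Gm36243 lay below the median signal. With 50 added to each signal Gm36243 was 0.36, and its 2 other probe sets had -0.32 and 0.26. Without wild-type pool 1 Capns2 was 0.07. Around Irx1, Irx2 and Irx4 the neighbours had log2 differences of -0.04 for Adamts16, 0.26 for Gm36529, 0.06 for 8030423J24Rik, 0.32 for Mrpl36, -0.31 for Eprn and 0.01 for Lpcat1. None of these 12 neighbours was called by limma, and at an unadjusted p under 0.05 stood Gm36243 alone.

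**Figure D3:**
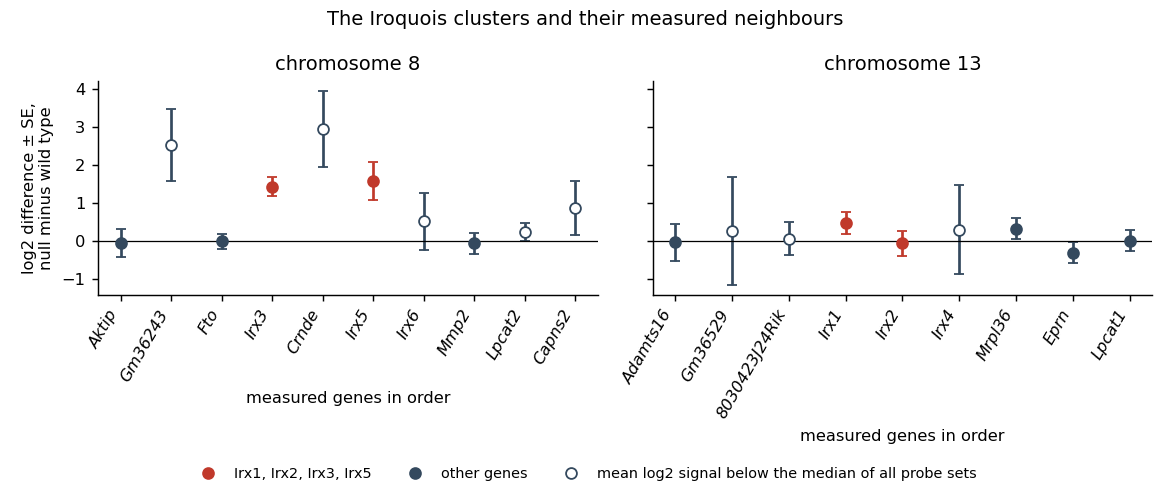
Log2 difference in signal, null minus wild type, with its standard error (vertical axis), for the measured genes in their order along the chromosome (horizontal axis, not to scale) around the Iroquois cluster of chromosome 8 (left) and chromosome 13 (right). Red points are Irx1, Irx2, Irx3 and Irx5, and open points have a mean log2 signal below the median of all probe sets. Irx3 at 1.43 and Irx5 at 1.58 stand between Fto at -0.02 and Mmp2 at -0.07.

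Upstream sequences are shown for the cluster genes that RefSeq's promoter table (build GRCm38.p6) holds, to set the start of Irx3 beside that of Crnde in the same cluster and of Irx2 in the other one. The table held 2 of the 4 genes, Irx2 and Irx3. Each sequence is the 250 bases before the annotated start, 5′ to 3′ on the gene's own strand, and capitals mark the GC box GGGCGG or its reverse complement. Irx3 lies at chr8:91801655-91801904 on the minus strand, Crnde at chr8:92356121-92356370 on the minus strand and Irx2 at chr13:72628570-72628819 on the plus strand.
Irx3: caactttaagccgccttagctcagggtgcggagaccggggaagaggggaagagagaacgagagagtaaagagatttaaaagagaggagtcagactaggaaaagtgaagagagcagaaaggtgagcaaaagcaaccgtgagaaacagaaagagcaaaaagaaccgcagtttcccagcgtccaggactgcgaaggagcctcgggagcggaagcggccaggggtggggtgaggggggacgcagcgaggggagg
Crnde: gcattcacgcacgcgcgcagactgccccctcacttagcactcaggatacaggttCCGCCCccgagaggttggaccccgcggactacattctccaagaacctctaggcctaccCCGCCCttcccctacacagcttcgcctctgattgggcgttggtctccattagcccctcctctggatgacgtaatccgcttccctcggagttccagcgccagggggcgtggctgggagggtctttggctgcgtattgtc
Irx2: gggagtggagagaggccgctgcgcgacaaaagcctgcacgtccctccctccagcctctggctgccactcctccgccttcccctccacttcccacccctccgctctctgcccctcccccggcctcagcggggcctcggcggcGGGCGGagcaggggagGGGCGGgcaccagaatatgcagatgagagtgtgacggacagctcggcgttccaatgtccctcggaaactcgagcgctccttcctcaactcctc
The stretch before Irx3 held 73.6% purines (A or G), and 99.8% of the 32851 stretches of this length in the table held a smaller share. Those before Crnde and Irx2 held 41.6% and 44.0%, below the median of 50.0%, and 8.3% and 14.9% of the stretches held a smaller share. Both strands were searched for the cores CTTTGA and CTTTGT, bound by TCF and LEF factors, the nuclear partners of beta-catenin, as well as for GGGCGG and for TATAAA, and no motif overlapped another. Neither TCF/LEF core was found in any of the 3 stretches, where 13.8% and 16.5% of all stretches hold one. GGGCGG was found at 2 places before Crnde, at 2 before Irx2 and at 0 before Irx3, and 32.7% of all stretches hold it. TATAAA was found in none of the 3, and in 12.4% of all. A missing match says only that these letters are not in this window.

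The genes whose log2 signals ran most like those of Irx3 were found among 1041 bright and varying genes over the 6 arrays. They were Rflnb (r = 0.98), Pxylp1 (0.97), Rgs5 (0.97), a regulator of G protein signalling, and Cdkn1b (0.95), a cell cycle inhibitor. For comparison, 5 of the genes had a higher r than the 0.94 of Irx5. Rflnb had 747 ± 75.1 in the null and 356 ± 106 in the wild-type pools (SD, n = 3 each), and Rgs5 had 484 ± 66.7 and 209.6 ± 40.4. Of 2 further Rflnb probe sets 1 did not share the difference, at a log2 difference of -0.09, and neither did 1 further Pxylp1 probe set at -0.05 or the further Cdkn1b probe set at -0.29, whereas all 3 further Rgs5 probe sets were higher in the null pools. The genes that ran most opposite to Irx3 were Hes7, a cycling repressor in presomitic mesoderm (r = -0.97), and Spag9 (-0.96). Spag9 had 2033 ± 298 in the null and 3399 ± 457 in the wild-type pools (SD, n = 3 each), a log2 difference of -0.74. It was not called (limma, adjusted p = 0.882) except in the fit that joined the block to trend and robust options (adjusted p = 0.0325, from 0.0325 to 1.00 over the alternatives). A further Spag9 probe set had -0.04 with overlapping groups, and another, at low signals, had -1.52 without overlap. Hes7 had 660.4, 652 and 674 in the null pools, against 1154, 838 and 1413 in the wild-type pools, where it was lowest in pool 2, the pool with the highest Irx3 and Irx5.

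For Irx5 the most alike genes were Lemd3 (r = 0.97), Bmerb1 (0.95), Ccdc28b (0.95) and Galnt12 (0.95), with 8 genes more alike than Irx3, and the most opposite were Hes7 (-0.97) and Pcdh18 (-0.96), a protocadherin. Irx1 ran most like Nfkbiz (0.97), Dnajc17 (0.91), Nek4 (0.90) and Vcpkmt (0.89), and most opposite to Pdzk1 (-0.94) and Lor (-0.85). Further probe sets of some of these genes differed. Ccdc28b had a log2 difference of 0.62, and its further probe sets had -0.28, 2.84 and 0.63. Dnajc17 had 0.53, and its further probe sets had 0.06 and -1.05. Irx2 ran most like Ptprz1 (0.97), a receptor phosphatase of neural progenitors, Anapc11 (0.97), Zeb1 (0.94) and Rcor2 (0.93), and most opposite to Pcx (-0.96) and Emid1 (-0.95). Ptprz1 had 235, 405 and 473 in the null pools, against 358, 287 and 816 in the wild-type pools, the same order of arrays as Irx2. With so many genes and only 6 arrays, some values of r near 1 occur for each of the 4. Of the bright and varying genes, 11 (1.06%) had an r above 0.9 with Irx3 and 16 (1.54%) with Irx5. With Irx1 there were 3 (0.288%) and with Irx2 9 (0.864%).

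Other genes of the TALE class stood close to 0 in their median. Their list includes the Iroquois genes Irx4 (0.29) and Irx6 (0.51), already described with the clusters. Of 13 measured genes 7 had a higher and 6 a lower mean log2 signal in the null pools, with a median difference of 0.07 against 0.00 over all 18193 genes, and limma called 0, with 0 at an unadjusted p under 0.05, where 2.56% of all genes were higher and 1.9% lower. No gene of this list had groups without overlap. Meis2, a partner of Hox proteins, had 7386 ± 1619 in the null and 6408 ± 915 in the wild-type pools (SD, n = 3 each). The smallest p values belonged to Pknox1, Meis3, Tgif1 and Mkx, with log2 differences of -0.28, -0.31, -0.20 and 0.21.

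Neural plate genes, among which Irx3 is usually counted, lay on both sides of 0. Of 25 measured genes 14 were higher in value in the null pools, with a median log2 difference of 0.06; limma called 0, with 3 higher and 1 lower at an unadjusted p under 0.05. Null pools lay above wild-type pools without overlap for 5 genes and below for 2, against 5.56% and 4.56% of all genes. The 5 were Zic5, Otx2, Sox1, Sox3 and Hesx1. Zic5, a zinc finger factor of early neural tissue, had 1331, 1405 and 1309 in the null pools, against 937, 763 and 737 in the wild-type pools. Its log2 difference was 0.74 with a standard error of 0.20 (limma, adjusted p = 0.809), and a second bright probe set had 0.65. Otx2, a forebrain gene also made in endoderm, had 1367, 216 and 468 in the null pools, against 129, 87.6 and 60.7 in the wild-type pools. Its log2 difference was 2.55 (limma, adjusted p = 0.846), and limma called it once the replicate block was joined to trend and robust options (adjusted p = 0.0373, from 0.0373 to 1.00 over the alternatives). The early neural gene Sox1 had 105 ± 34.3 in the null and 43.9 ± 27.0 in the wild-type pools (SD, n = 3 each). Lower in value were Gbx2, a hindbrain gene, at 1006 ± 59.5 in the null and 1449 ± 222 in the wild-type pools, and the proneural gene Neurog2 at 30.2 ± 8.03 and 76.3 ± 36.8.

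Genes that share or set the dorsoventral borders of the neural tube with Irx3 were mostly dim. Of 15 measured, 4 had a mean log2 signal at or above the median, 6 were higher and 9 lower in value, the median log2 difference was -0.04, and no gene was called by limma or had an unadjusted p under 0.05. Olig2, a gene of motor neuron progenitors, had 19.5 ± 10.9 in the null and 21.5 ± 7.51 in the wild-type pools (SD, n = 3 each), and Pax6 had a log2 difference of -0.63. The 4 smallest p values belonged to Olig1, Nkx6-2, Gsx2 and Msx1, with log2 differences of 0.59, 1.09, 0.91 and -0.60. Single arrays weighed on these: leaving out 1 at a time gave 0.42 to 0.83 for Olig1, 0.64 (without null pool 2) to 1.74 (without wild-type pool 2) for Nkx6-2, 0.44 (without wild-type pool 1) to 1.68 (without wild-type pool 3) for Gsx2 and -1.01 (without null pool 2) to -0.23 (without null pool 1) for Msx1. A second Msx1 probe set had a log2 difference of -0.96, with the null pools below the wild-type pools without overlap (limma, unadjusted p = 0.0313, adjusted p = 0.969). Of 14 measured hedgehog pathway genes 4 were higher and 10 lower in value, with a median of -0.04 and no call by limma, and 0 at an unadjusted p under 0.05. Its members with the smallest p were the inhibitor gene Hhip at 1.07, the target gene Gli1 at -0.78, and the receptor genes Cdon at 0.48 and Boc at -0.24. Hhip was 0.59 without wild-type pool 3 and 0.40 with 50 added, and its 3 other probe sets had 0.06, -0.19 and -0.73. Without wild-type pool 3 Gli1 was -0.30, and without wild-type pool 2 it was -1.37. Of 14 measured retinoic acid genes 9 were higher and 5 lower in value, with a median of 0.10 and no call by limma, and 0 at an unadjusted p under 0.05. Crabp1, a retinoic acid binding protein, had 758, 1166 and 1302 in the null pools, against 1570, 1367 and 1909 in the wild-type pools, without overlap. Rarb, a receptor gene, had a log2 difference of 0.60, and Cyp26a1, which breaks down retinoic acid, of 0.25. Aldh1a1 had 58.9, 8.50 and 5.36 in the null pools, against 6.94, 5.41 and 6.25 in the wild-type pools, so its log2 difference of 1.17 came from null pool 1 and was 0.13 without it. Without null pool 1 Cyp26a1 was 0.06.

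**Figure D4:**
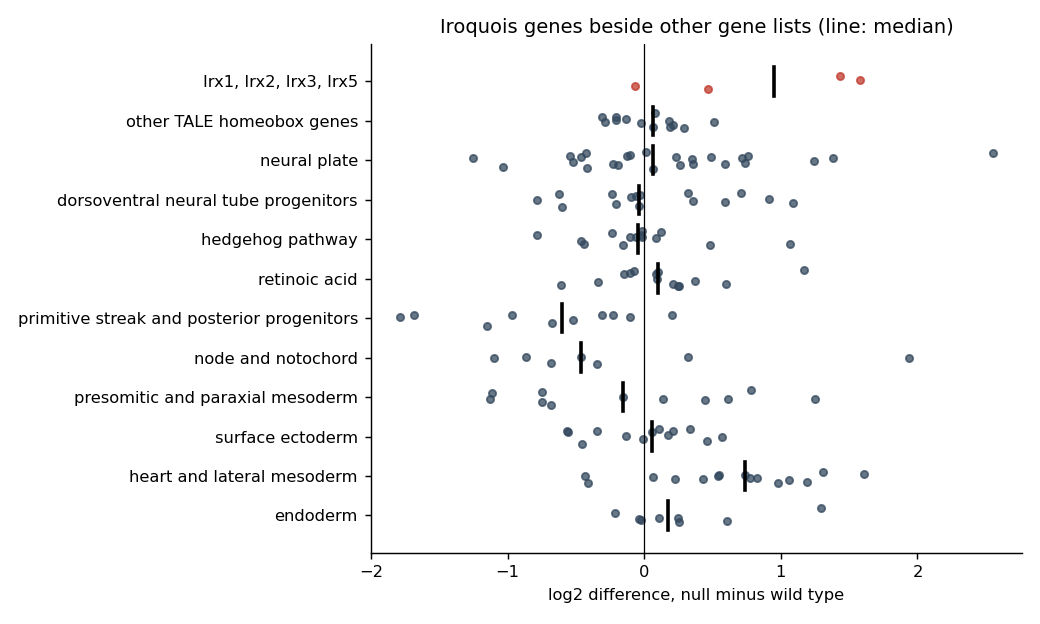
Log2 difference in signal, null minus wild type (horizontal axis), for Irx1, Irx2, Irx3 and Irx5 (red, top) and for the measured genes of each list (blue), 1 point a gene, with the median of each list as a black line. The other TALE genes, which include Irx4 and Irx6, lie between -0.31 and 0.51, and heart and lateral mesoderm has a median of 0.74.

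Markers of other cell types that the dissected region could hold also differed in value between the genotypes. Of 15 heart and lateral mesoderm genes 13 were higher in value in the null pools, with a median log2 difference of 0.74; limma called 0, with 2 higher at an unadjusted p under 0.05, and the replicate block with trend and robust options called 1 higher, Tbx20 (log2 difference 1.06), against 0.0165% of all genes. Their summed signal was 5070.4 to 6064 in the null pools, against 3008 to 3989 in the wild-type pools. The defining heart gene Nkx2-5 was near the floor, at 42.2 ± 8.09 in the null and 58.2 ± 17.3 in the wild-type pools (SD, n = 3 each), as was Tbx5 at 40.6 ± 39.6 and 23.7 ± 10.7. Of 10 genes of the streak and posterior progenitors 9 were lower in value, with a median of -0.60; limma called 0, with 3 lower at an unadjusted p under 0.05, and the replicate block with trend and robust options called 2 lower, Sp5 (-1.69) and Cdx4 (-1.78), against 0.0495% of all genes. Their summed signal was 17246 to 22856 in the null pools, against 24158 to 29533 in the wild-type pools. Most of that was Nkx1-2, which had overlapping groups and a log2 difference of -0.23. The summed signal of surface ectoderm genes was 23141 to 24745 in the null pools, against 20037 to 22563 in the wild-type pools. Most of that was Krt8, Krt18 and Cdh1, of which Cdh1 had 4653 ± 116 in the null and 3447 ± 785 in the wild-type pools. The median log2 difference of the 13 genes was 0.06, and 7 were higher in value. The 6 lower ones included Dlx3 (-0.46), Dlx5 (-0.13), Trp63 (-0.56), Wnt6 (-0.56) and Grhl3 (-0.35). Neural plate genes summed to 23984 to 26580 in the null pools, against 26389 to 29026 in the wild-type pools, and most of that was Nkx1-2, which the streak list holds too. Endoderm genes overlapped in their sums, at 33024 to 44075 in the null pools, against 26922 to 52755 in the wild-type pools, with 5 of 8 higher in value. Presomitic mesoderm genes, of which 5 of 11 were higher in value, had a median log2 difference of -0.15. The replicate block with trend and robust options called 1 of them lower, Dll1 (-0.68), against 0.0495% of all genes. The presomitic genes summed to 7906 to 9318 in the null pools, against 10337 to 10657 in the wild-type pools. The brightest of them was Dll1, at 2857 ± 484 in the null and 4587 ± 739 in the wild-type pools. The 5 higher ones included Mesp2 (1.25), Tcf15 (0.78) and Meox1 (0.62), and the 6 lower ones Tbx6 (-0.75), Msgn1 (-1.13) and Hes7 (-0.75). Node genes, of which 2 of 7 were higher, summed to 909 to 1850 in the null pools, against 1112 to 2971 in the wild-type pools. Tbx20, Sp5, Cdx4 and Dll1 were named after their values were seen. The part of any of these in the values of Irx3, Irx5 and Irx1 was not tested.

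**Figure D5:**
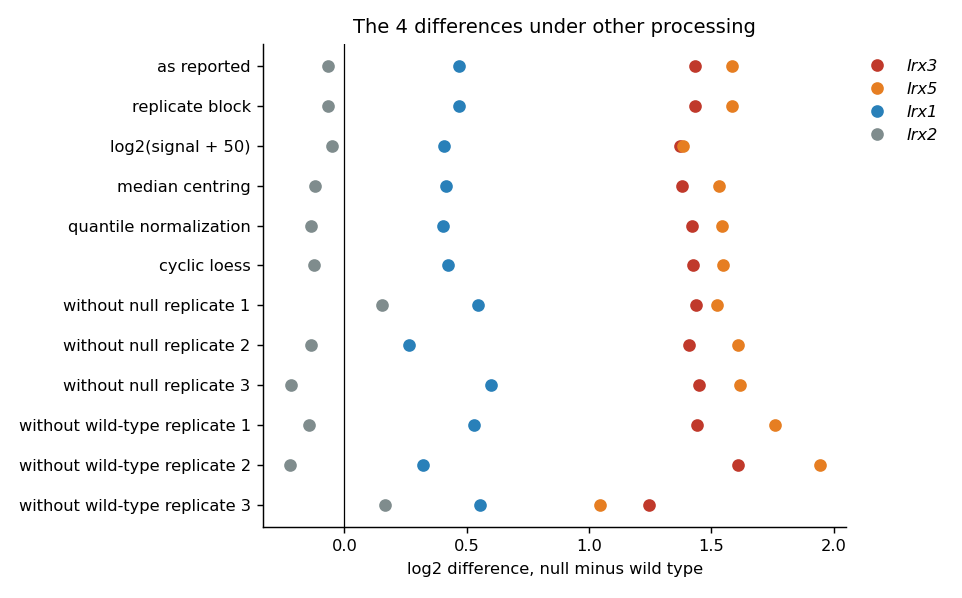
Log2 difference in signal, null minus wild type (horizontal axis), of Irx3, Irx5, Irx1 and Irx2 under each way of processing and without each array (vertical axis). Irx3 stays between 1.24 and 1.61 and Irx5 between 1.04 and 1.94, while Irx2 lies on both sides of 0.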

How the data were processed

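The series compared Wnt3a null with wild-type node and primitive streak regions on 6 arrays. The deposited values are linear signal intensities, 1 for each probe set on an array; per the submitters' processing notes RMA was used, but the values do not have that form, since they are linear and their mean without the outer 2% on either side is 500.0 for every array. No source read for this names the step that made them. Each embryo gave 30 to 50 ng of total RNA for amplification, per the labels' protocols, and amplified RNA of 3 embryos was pooled (600 ng).

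Intensities were turned to log2 without a floor or a filter, and 64 control probe sets were left out. Of 45037 probe sets 34945 had 1 symbol, 932 several and 9160 were not listed. Genes other than Irx1, Irx2, Irx3 and Irx5 were represented by the probe set with the highest mean log2 signal. Genotypes were compared with limma 3.58.1 in R 4.3.3 (lmFit, eBayes), two-sided, adjusted by Benjamini-Hochberg over all probe sets at 0.05. Every adjusted p in the text comes from this fit or from an alternative to it. The alternatives with a filter and with 1 probe set a gene were adjusted over the 22519 and 18193 probe sets they kept. The precision is limited by 3 arrays a genotype.

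Named were the 4 genes, Irx4, Irx6, Wnt3a, the 3 nearest measured genes on each side of each cluster, up to 4 genes with the smallest p in each of 5 lists, and the 4 genes with the highest and 2 with the lowest r to each gene, among genes with a mean log2 signal of at least 8 and a range of at least 1. Crnde, Meis2, Sox3, Hesx1, Gbx2, Olig2, Pax6 and the marker genes were named outside this rule. The members and lists were chosen with earlier results of these data known. Cluster order came from RefSeq genes of GRCm38.p6.

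Same-numbered arrays were checked for pairing: deviations from the genotype means correlated at 0.42, 0.45 and 0.28 over 18088 probe sets with a mean log2 above 7, and at 0.05, 0.05 and 0.03 over all probe sets, against a bound of 0.1. On the bright probe sets the correlations passed that bound. The main fit, which gave the standard errors in the text, held no replicate term. Pairs were used only in the replicate block and in the differences within replicate numbers. With the block the standard errors were 0.22 for Irx3, 0.44 for Irx5, 0.32 for Irx1 and 0.24 for Irx2. What a number stands for is not stated in the labels.

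Alternatives were a replicate block, log2(signal + 50), median centring, quantile and cyclic loess normalization, a filter at the median signal, 1 probe set a gene, trend and robust options, and leaving out each array. Protein sequences were not used here.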

Additional observations from a re-analysis of the deposited data

How the results depend on the processing

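Irx3, Irx5 and Irx1 kept their direction under every alternative run. Under the block, the added 50 and the 3 normalizations Irx3 ranged from 1.37 to 1.43, Irx5 from 1.38 to 1.58, Irx1 from 0.40 to 0.47 and Irx2 from -0.14 to -0.05. Leaving out 1 array at a time gave 1.24 to 1.61 for Irx3, 1.04 to 1.94 for Irx5, 0.26 to 0.60 for Irx1 and -0.22 to 0.17 for Irx2, whose direction turned in 2 of 6; in each case fewer pools enter. The count of called probe sets stayed at 0 without each array and under the block, the added 50, the normalizations, the filter and 1 probe set a gene. It was 1, lower in null, with trend and robust options, and 22, with 14 lower and 8 higher, when the replicate block was added to those options. The replicate block left the estimates as they were. Among the 73 other named genes tried, it changed with those options the call of Otx2, Spag9, Sp5, Cdx4, Dll1 and Tbx20. The cause was not tested. Irx3 was called in that fit too, but it was chosen from this contrast with its difference known, so nothing is read from that call. By Spearman's rho, which has few possible values over 6 arrays, 1 of the 4 most alike genes of Irx3, of Irx5 and of Irx1 and 3 of those of Irx2 stayed among the most alike. Of the 2 most opposite genes, 2 stayed for Irx3 and for Irx2, and 0 for Irx5 and for Irx1.

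Of those 73 genes, 54 never turned direction, and the difference of 50 moved by over 1.5 times without 1 array or another. With 50 added, Irx4 was -0.018, Adamts16 0.018 and Gm36529 -0.0028, all at low signals, where the added value shrinks differences by construction. With median centring Lpcat1 was -0.046 and Emid1 -6.70e-05, and with quantile normalization Emid1 was -0.0071. Without single arrays Irx4 ran from -0.81 to 1.21, Aktip from -0.40 to 0.20, Fto from -0.12 to 0.037, Mmp2 from -0.19 to 0.16, Adamts16 from -0.38 to 0.48, Gm36529 from -1.06 to 1.28, 8030423J24Rik from -0.17 to 0.46, Lpcat1 from -0.18 to 0.20 and Wnt3a from -0.18 to 0.023. Among genes named for their likeness, Lor ran from -0.63 to 0.11, Ptprz1 from -0.60 to 0.15, Anapc11 from -0.28 to 0.15, Zeb1 from -0.39 to 0.10, Rcor2 from -0.59 to 0.023, Pcx from -0.43 to 0.22 and Emid1 from -0.30 to 0.41. Of the listed genes Olig2 ran from -0.66 to 0.16, Pax6 from -1.15 to 0.061 and Tbx5 from -0.33 to 0.90. Several list medians took both signs when single arrays were left out. The median ran from -0.14 to 0.23 for the neural plate, from -0.10 to 0.12 for other TALE genes and from -0.16 to 0.16 for dorsoventral genes. It ran from -0.12 to 0.05 for the hedgehog pathway, from -1.19 to 0.33 for node and notochord and from -0.02 to 0.16 for surface ectoderm. The medians of the other lists kept their sign. Signals below the median of the arrays vary widely on the log2 scale, which limits Irx4, Irx6 and Crnde, and 3 arrays a genotype limit all values.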
